A study of Bos taurus with 8 samples.

Results

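A set of 9 interferon-stimulated genes was followed in the rumen papillae of dairy cows fed diets low or high in concentrate, namely ISG15, MX1, MX2, OAS1X, OAS1Y, IFI6, RSAD2, IFIT3 and IRF7. They were chosen by their differences between the diets and their signals on 1 array (H4-P1, from cow 4 on the high-concentrate diet) in earlier results of these data, so their difference between the diets is given as a description without a test. A member was measured where a probe carried a RefSeq accession of that gene, and 5 of the 9 genes had one, out of 7788 gene symbols and 21475 probes on the array. The measured members were ISG15 (NM_174366), MX1 (NM_173940), MX2 (NM_173941), RSAD2 (NM_001045941, with 2 probes) and IFIT3 (NM_001075414). OAS1X, OAS1Y, IFI6 and IRF7 had no probe matched this way and are not analysed here. Positions in the genome are not given, because the array was designed on another genome build than the reference that supplied the symbols.

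Interferons are cytokines that cells release when they sense viral or other foreign nucleic acid or microbial products. Type I interferons bind a receptor made of IFNAR1 and IFNAR2, whose kinases JAK1 and TYK2 activate transcription factors that join IRF9 to switch on a large set of genes. The members belong to that set: ISG15 is a ubiquitin-like protein that is coupled to other proteins, MX1 and MX2 are dynamin-like antiviral GTPases, OAS1X and OAS1Y belong to the oligoadenylate synthetase family that responds to double-stranded RNA, RSAD2 (viperin) is an antiviral radical SAM enzyme, IFIT3 acts with other IFIT proteins that bind viral RNA, IFI6 is a small membrane protein, and IRF7 is a transcription factor that drives interferon genes.

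The RNA came from papillae of 4 ruminally cannulated Holstein cows, 84 ± 25 d in milk at the start, which were all sampled on both diets in a crossover. The low-concentrate (LC) diet held 40% concentrate of dry matter and the high-concentrate (HC) diet 70%, and papillae were taken on day 21 of each period, 4 h after the morning feeding. Cows 1 and 2 were fed LC in period 1 (arrays L1-P1 and L2-P1) and HC in period 2 (H1-P2 and H2-P2), and cows 3 and 4 were fed HC in period 1 (H3-P1 and H4-P1) and LC in period 2 (L3-P2 and L4-P2). Each array carried 1 sample in a single colour, and each period had its own slide of 4 arrays, so the effects of slide and of period cannot be told apart.

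On each array, 76.9 to 81.2% of the probes were well above background by the scanner software's own test, the median intensity was 92.1 to 132, and 0 spots were saturated. The number of arrays limits the precision. Values are quantile-normalized log2 signals, and every difference is on that log2 scale. They can be compared between arrays for 1 probe and not between probes. Over the 16030 probes that were measured well above background on every array, the mean Pearson r of each array with the other 7 was 0.989 to 0.991, and for H4-P1 it was 0.990. The tissue label was checked with 16 squamous epithelium genes, of which 11 had a probe. Of these, 10 (among them the keratins KRT14, KRT15 and KRT6A, the desmosomal genes DSG1, DSG3 and DSP, and IVL) passed that background test on each of the 8 arrays, and TP63, a defining factor of squamous epithelium, was so on no array.

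ISG15 had its highest signal on H4-P1, the HC array of cow 4. In the LC group, the ISG15 log2 signal was 8.0, 10.25, 7.15 and 10.32 in cows 1 to 4. In the HC group it was 8.75, 8.32, 7.73 and 13.57 in the same order. H4-P1 lay 3.25 above the highest of the other 7 arrays, a 9.54-fold higher signal, while those 7 spanned 3.17 among themselves. The other HC arrays all lay within the range of the LC group, below both L2-P1 and L4-P2. The fitted HC minus LC difference of ISG15 was 0.66 (standard error 1.41, 4 arrays per diet) and was -0.80 (standard error 0.96) without H4-P1. Within the cows the difference was 0.74, -1.93, 0.57 and 3.25, so 3 of 4 cows had more signal on HC, and cow 4 had the highest signal of its group on either diet. In bulk tissue, fewer cells of a type and less RNA per cell cannot be told apart.

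MX1 had the same leading array. Its log2 signal in cows 1 to 4 was 8.25, 8.09, 7.04 and 8.05 in the LC group. It was 8.96, 6.85, 7.38 and 11.20 in the HC group. H4-P1 stood 2.25 above the next array, H1-P2, a 4.75-fold higher signal, and the other 7 arrays spanned 2.11. Without H4-P1 the groups overlapped, with the lowest signal of all 8 arrays in the HC group. The HC minus LC difference of MX1 was 0.74 (standard error 0.90) over all 8 arrays and -0.22 (standard error 0.58) without H4-P1. Within the cows it was 0.71, -1.24, 0.33 and 3.16.

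MX2, the second MX gene, showed little of this. Its log2 signal in cows 1 to 4 was 5.37, 5.37, 5.43 and 5.11 in the LC group, and 5.02, 5.38, 5.40 and 5.66 in the HC group. H4-P1 was again the highest array, but by 0.23, and the spots of the probe on that array differed by 0.22, so the excess was about the size of the gap between spots. The HC minus LC difference was 0.04 (standard error 0.13), and -0.02 (standard error 0.15) without H4-P1. The groups overlapped, and 2 of 4 cows were higher on HC.

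RSAD2 was measured by 2 probes. The brighter had log2 signals of 6.11, 7.79, 6.95 and 6.88 in cows 1 to 4 on LC, and of 5.96, 6.86, 6.70 and 8.24 on HC. The dimmer had 6.70, 7.12, 6.66 and 6.65 on LC, and 6.50, 6.40, 6.68 and 7.47 on HC. On both probes H4-P1 was the highest array and L2-P1 the next, with a gap of 0.45 for the brighter and 0.36 for the dimmer. The HC minus LC difference of the brighter probe was 0.01 (standard error 0.49) over all arrays and -0.38 (standard error 0.47) without H4-P1. For the dimmer these were -0.02 (standard error 0.20) and -0.22 (standard error 0.14). Only cow 4 had a higher signal of the brighter probe on HC, by 1.36, and the groups overlapped on both probes.

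IFIT3 behaved differently from the other members and was close to background. Its log2 signal in cows 1 to 4 was 1.77, 1.87, 1.88 and 2.41 in the LC group, and 2.83, 3.21, 3.15 and 3.65 in the HC group. Every HC array lay above every LC array, as was the case for 0.922% of all probes. The probe was well above background on 0 of 4 LC arrays and 3 of 4 HC arrays, so no exact fold is given. With the LC arrays raised to a floor, the signal was 1.76-fold higher on HC. This value takes the mean of all 4 HC arrays, though 3 were well above background. Each LC array counts at the lowest log2 signal of any probe well above background there, or at the IFIT3 signal where that was higher. The fitted difference was 1.23 (standard error 0.18), and 1.10 (standard error 0.18) without H4-P1. Within the cows it was 1.06, 1.34, 1.26 and 1.24, so H4-P1 added little to it. The repeat spots of the IFIT3 probe differed by up to 1.56 on 1 array. The 1.76-fold is 0.82 on the log2 scale. With normexp background correction the difference was 0.08, but that correction was run with an offset of 50. The IFIT3 spots read 2.20 to 16.1, so the offset shrinks any difference between them, and the 0.08 is no estimate of its size. Because of the dim HC array and the gaps between spots, the 1.76-fold is not taken as a lower limit.

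**Figure D1:**
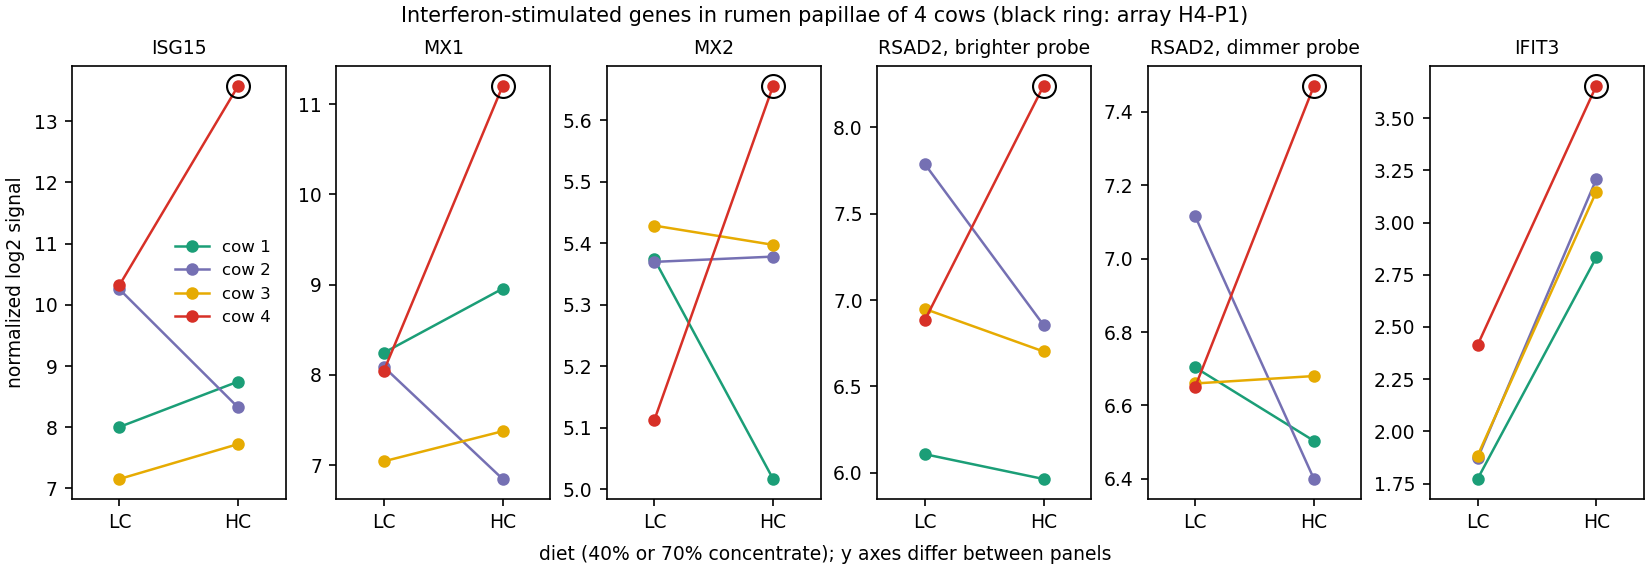
Normalized log2 signal (y axis, separate range in each panel) of the 5 members with a probe on the LC and HC diets (x axis), with both RSAD2 probes. Each line joins the LC and HC arrays of 1 cow and the black ring marks H4-P1, which is the highest array in every panel; for IFIT3 all 4 lines rise, while for the brighter RSAD2 probe the lines of cows 1 to 3 fall and for the other probes they run in mixed directions.

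On H4-P1, the repeat spots of the members other than MX2 gave readings within 0.08 of each other. The ISG15 spots had intensities of 10672.5 and 11035.2, and those of MX1 2028.5 and 2082.2. The gaps between the spots were 0.05 (ISG15), 0.04 (MX1), 0.04 and 0.08 (the RSAD2 probes), 0.02 (IFIT3) and 0.22 (MX2), against a median of 0.17 over the arrays for MX2. On the 7 other arrays the ISG15 spots ran from 112 (L3-P2) to 1583 (L4-P2).

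The authors' deposited table of normalized values also held the high signal, at 13.58 for ISG15 and 11.21 for MX1 on H4-P1. In that table, the values named for cow 1 matched the array of cow 2 and the reverse, on both diets, which leaves the diet groups as they are. Once this was taken into account, no deposited value of ISG15, MX1, MX2 or RSAD2 stood more than 0.1 from the scanner value used here.

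Over the 5 members, 1 (IFIT3) had an HC minus LC difference of at least 1.5-fold with an unadjusted p under 0.05 in limma, in the higher direction, where 0.494% of all probes were counted, and 0 in the lower direction, beside 0.428% of all probes. The limma count at an unadjusted p under 0.05 was also 1 member, beside 3.65% of all probes. The members were chosen with this contrast known, so nothing is read from that count. Without H4-P1 the count was again IFIT3 alone, beside 0.945% of all probes. The median difference of the 5 members was 0.66 over all 8 arrays and -0.22 without H4-P1, and the median over all probes was 0.00 in both fits. Leaving out H3-P1 instead gave a median of 1.35, and MX1 joined IFIT3 past the thresholds, against 1.04% of all probes counted as higher and 0.615% as lower. In that fit H4-P1 was the only HC array of period 1, so it added no residual and weighed more in the difference. Likewise, H3-P1 was the only such array in the fit without H4-P1. No probe on the array had an adjusted p under 0.05 for diet (Benjamini-Hochberg in limma). The smallest was 0.412 with all 8 arrays and 0.146 without H4-P1.

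The array H4-P1, whose signals were used to choose the members, enters the period contrast and the diet by period interaction too, so the members' counts there are descriptions. In limma, 0 of 5 members passed both thresholds for period, against 3.86% of all probes, and 0 of 5 for the interaction, against 2.93%. The interaction also separates cows 1 and 2 from cows 3 and 4. At an unadjusted p under 0.05 the count was 0 of 5 in each, against 12.3% of all probes for period and 10.2% for the interaction. Within period 1, which holds H4-P1, the HC minus LC difference was 1.52 for ISG15 and 1.12 for MX1. Within period 2 it was -0.20 for ISG15 and 0.36 for MX1. For the brighter RSAD2 probe it was 0.52 in period 1 and -0.51 in period 2. For IFIT3 it was 1.58 and 0.87, higher on HC in both periods.

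The likeness between members changed once H4-P1 was left out. Across the 8 arrays, Pearson r was 0.85 between ISG15 and MX1, 0.75 between ISG15 and RSAD2, and 0.45 between MX1 and RSAD2. Over the 7 arrays without H4-P1 these were 0.46, 0.44 and -0.41. MX1 and MX2 went from 0.28 over 8 arrays to -0.74 over 7. These correlations are descriptions over arrays that include 2 of each cow.

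The rest of the interferon system was described from lists of ligands, receptors and signalling genes, sensors and IRFs, other interferon-stimulated effectors and genes that lean to interferon gamma. The lists held 133 genes besides the members, and 56 had a probe. One of the 56 passed both thresholds for diet in limma, in the higher direction, again beside 0.494% of all probes. This was TLR7, an endosomal sensor of single-stranded RNA, named here after its values were seen. It was well above background on 1 array, so no fold is given, and its adjusted p over all probes was 1.00.

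Among the ligands, 5 of 20 genes had a probe. IFNB1, IFNAA and IFNW1, which encode type I interferons, were well above background on no array, and IFNAC on 7. IFNG, the type II interferon made by T and natural killer cells, was well above background on 6 arrays. The IFNG log2 signal was 2.32, 3.83, 3.29 and 3.63 in cows 1 to 4 on LC and 3.34, 3.85, 3.31 and 1.84 on HC, and H4-P1 was its lowest array.

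Of 16 receptor and signalling genes, 8 had a probe, and each was well above background throughout. IFNAR1 had log2 signals of 4.46 to 4.98 on LC and 4.52 to 4.84 on HC, with an HC minus LC difference of -0.06 (standard error 0.16). IFNAR2 had 8.31 to 8.83 on LC and 7.99 to 8.57 on HC, with a difference of -0.26 (standard error 0.16), and its lowest array was H4-P1. TYK2 had 10.19 to 10.34 on LC and 10.26 to 10.43 on HC, a difference of 0.08 (standard error 0.08). JAK1, STAT2 and IRF3 had no matched probe. None of these differences passed the thresholds, and none of the receptors had its highest signal on H4-P1.

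IRF9, the DNA-binding subunit of the complex that type I interferons activate, was the exception in this list. Its log2 signal in cows 1 to 4 was 9.80, 10.35, 9.67 and 9.75 on LC and 10.10, 10.46, 9.72 and 11.97 on HC. H4-P1 lay 1.51 above the other 7 arrays. The HC minus LC difference was 0.67 (standard error 0.48) over all arrays and 0.11 (standard error 0.19) without H4-P1.

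Among the other effectors, 24 of 55 genes had a probe and 21 were well above background throughout. H4-P1 was the highest array for 18 of these 21, beside 10.5% of the 16030 probes well above background on every array. It was more than 1 above all other arrays for 6, beside 0.231% of those probes. The lists were compiled with the H4-P1 pattern known, so these shares are descriptions. The exceptions were LAP3, PHF11 and CNP, whose highest signal was on another array.

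The 6 effectors with the larger excess were RTP4, a chaperone of receptors, XAF1, a pro-apoptotic factor, PARP9 and DTX3L, which act together in ADP-ribosylation and ubiquitination, HERC6, a HECT-type ubiquitin ligase, and UBA7, the activating enzyme for ISG15. RTP4 had log2 signals of 6.37, 6.66, 6.78 and 6.66 on LC and 7.27, 6.87, 7.0 and 9.91 on HC. H4-P1 lay 2.64 above its next array, and the HC minus LC difference was 1.15 (standard error 0.60). Without H4-P1 that difference was 0.42 (standard error 0.15), with each of the 3 remaining HC arrays above every LC array. It passed both thresholds in neither fit.

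XAF1 had log2 signals of 6.97, 7.73, 7.39 and 7.68 on LC and 7.71, 7.76, 7.26 and 10.21 on HC. PARP9 had 7.81, 8.15, 7.15 and 7.75 on LC and 7.75, 8.0, 7.60 and 10.52 on HC. HERC6 had 5.95, 6.06, 5.31 and 6.70 on LC and 6.05, 5.69, 5.71 and 9.05 on HC. For each of these 3 genes the other HC arrays lay at least partly within the LC range, and the excess of H4-P1 over the next array was 2.45 (XAF1), 2.38 (PARP9) and 2.35 (HERC6).

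DTX3L had log2 signals of 5.08 to 5.60 on LC and 5.20 to 7.61 on HC, and UBA7 9.25 to 9.79 on LC and 9.32 to 11.59 on HC. H4-P1 exceeded their other arrays by 2.02 and 1.80. HERC5, the ligase that couples ISG15 to proteins in humans, had a smaller excess of 0.69. Without H4-P1 the HC minus LC differences of XAF1, PARP9, HERC6, DTX3L, UBA7 and HERC5 fell between -0.21 and 0.05, from 0.24 to 0.79 with it. The fit across all probes called none of these differences, with or without H4-P1.

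**Figure D2:**
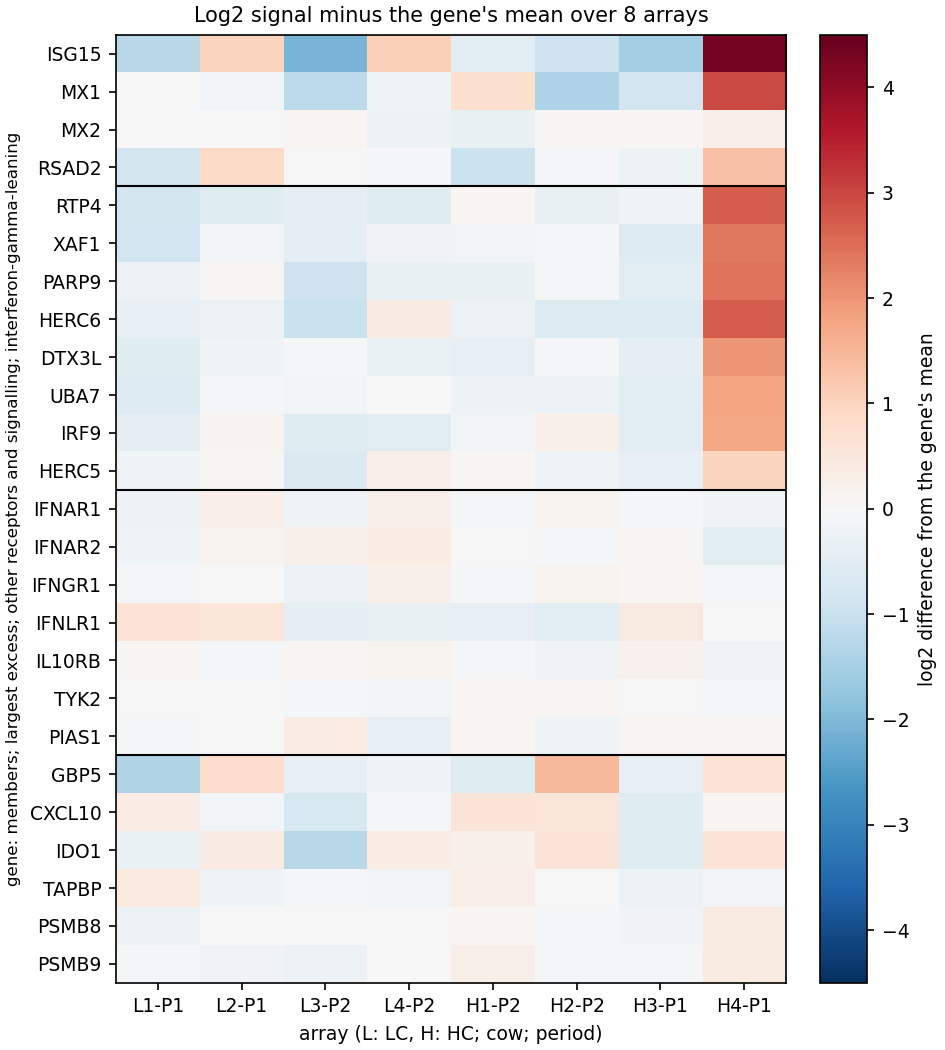
Log2 signal minus the gene's mean over the 8 arrays (colour, red above and blue below) for the 4 members well above background on all arrays, the 8 interferon genes with the largest excess on H4-P1, the other receptors and signalling genes, and 6 genes that lean to interferon gamma (y axis), by array (x axis). The column of H4-P1 is red or pale red for the first 12 genes and pale or blue for the receptors.

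**Figure D3:**
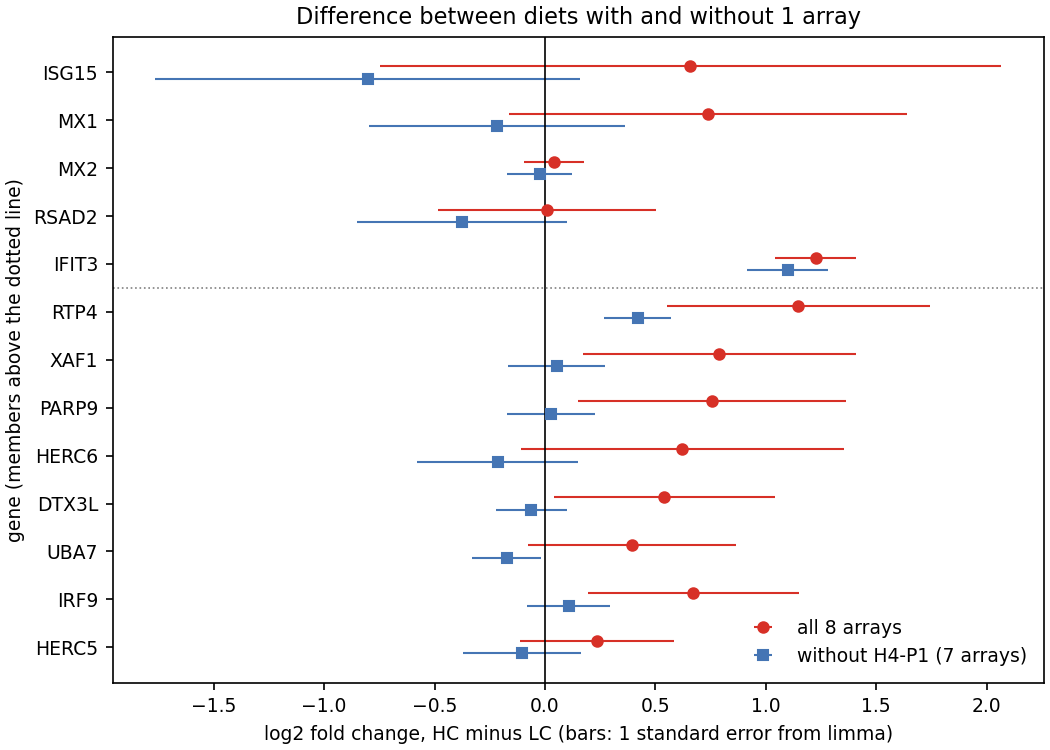
Log2 fold change HC minus LC with 1 standard error from limma (x axis) for the members and 8 other interferon genes (y axis), over all 8 arrays (red) and over the 7 arrays without H4-P1 (blue). ISG15 moves from 0.66 to -0.80 and MX1 from 0.74 to -0.22, whereas IFIT3 goes from 1.23 to 1.10.

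Genes of the list that leans to interferon gamma had a smaller excess on H4-P1. Its median over the other 3 HC arrays was 0.40, beside 0.85 for the other effectors and -0.01 for all probes. Of 18, 6 had a probe, each well above background throughout. H4-P1 was the highest array for 2 of them, the immunoproteasome subunits PSMB8 and PSMB9, beside 10.5% of the 16030 probes well above background on every array. It was more than 1 above the others for 0, beside 0.231% of those probes. CXCL10, a chemokine for activated T cells, had log2 signals of 6.63 to 7.69 on LC and 6.81 to 7.96 on HC, with 7.44 on H4-P1. GBP5 (a guanylate-binding protein), IDO1 (which breaks down tryptophan) and TAPBP (which loads MHC class I) also had their highest signal on another array. Among the 13 sensors and IRFs with a probe, 9 were well above background throughout. H4-P1 was the highest array for 2 of these, DHX58 (0.61 above the next) and IRF5 (0.12), again beside 10.5% of the 16030 probes.

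Against the mean of the other 3 HC arrays, H4-P1 was higher by a median of 1.73 over the 5 members and 2.60 over the 4 that were so measured throughout. The excess was 5.31 for ISG15, 3.48 for MX1, 1.73 for RSAD2, 0.39 for MX2 and 0.59 for IFIT3. The median was 0.85 over the 24 other effectors, 0.40 over the genes leaning to interferon gamma, 0.09 over the sensors and IRFs, and -0.14 over the receptors and signalling genes. Over all probes it was -0.01.

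**Figure D4:**
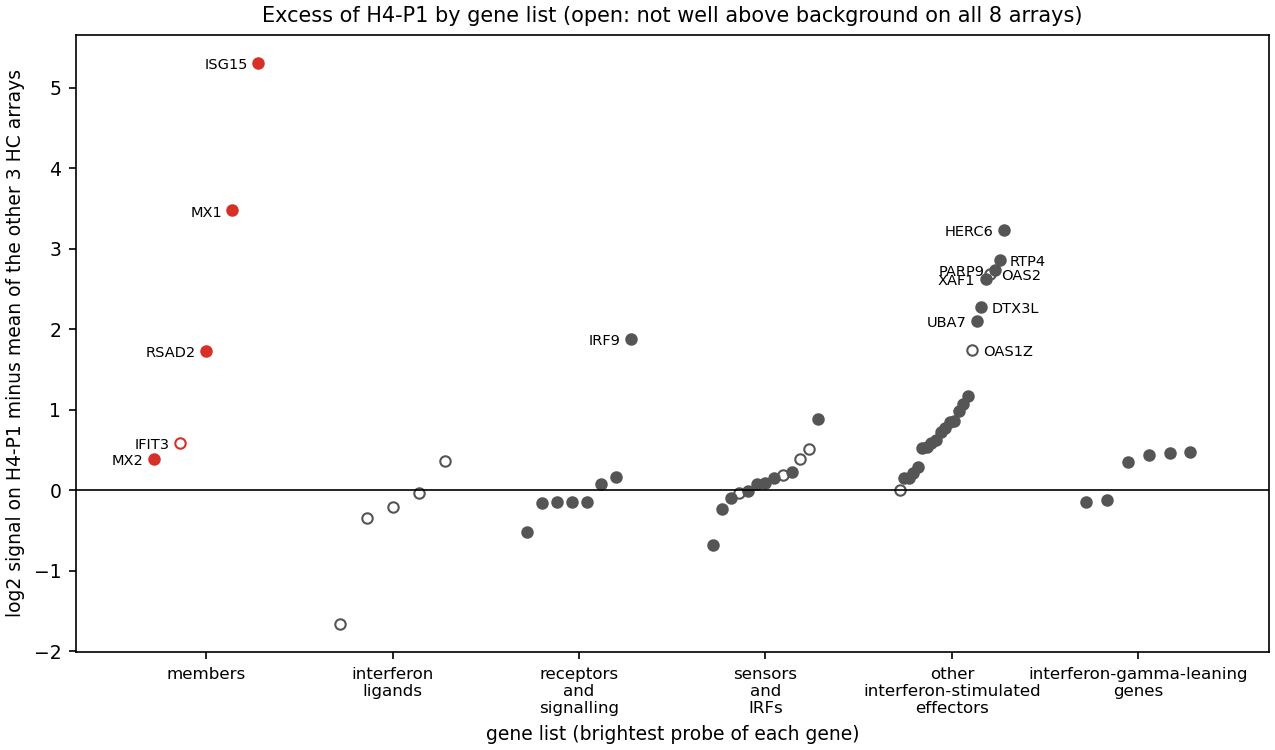
Log2 signal on H4-P1 minus the mean of the other 3 HC arrays (y axis) for the brightest probe of each gene, by list (x axis); open circles are genes not well above background on all 8 arrays. ISG15 (5.31) and MX1 (3.48) lie at the top, 8 other effectors lie above 1.3, and the receptors other than the signalling gene IRF9 lie near 0.

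Counted over the whole array, H4-P1 held more isolated high signals than the others. It was more than 1 above all other arrays for 37 of the 16030 probes, while the same count for the other arrays ran from 1 (L4-P2) to 12 (L3-P2). Of the 37 probes, 13 had a gene symbol, and these gave 12 symbols. Of the 12, 9 were members or genes of the interferon lists: ISG15, MX1, DTX3L, HERC6, IRF9, PARP9, RTP4, UBA7 and XAF1. Of all 7788 symbols with a probe, 5 were members and 56 were other list genes. On the other 7 arrays 0 such genes belonged to these lists. The members and lists were chosen with the H4-P1 pattern known, so these counts are descriptions and nothing is read from them. The other 3 symbols on H4-P1 were LOC282255, ENDOV and GPX2, the last 2 named after their values were seen.

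**Figure D5:**
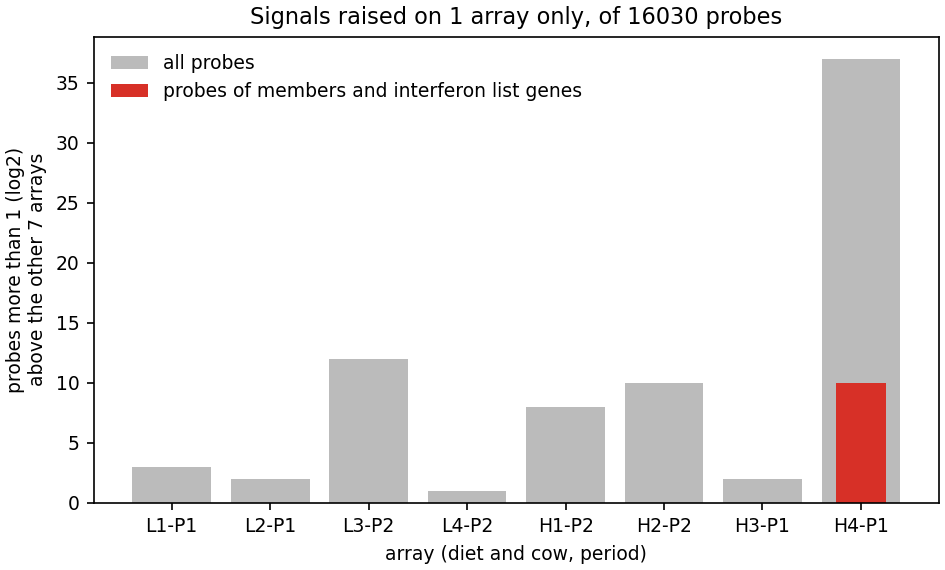
Number of probes, among the 16030 well above background on all 8 arrays, whose log2 signal was more than 1 above every other array (y axis), by array (x axis), with those of the members and interferon list genes in red. H4-P1 has 37, of which 10 belong to these genes, and each other array has at most 12, of which 0 do. The members and lists were chosen with the H4-P1 pattern known.

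The genes most like the members were found by Pearson r over the 8 arrays with the mean of the 4 members well above background throughout, each centred on its own mean, among 6469 genes. Outside the members and lists, the closest were RECK (r 0.95), CCDC149 (0.93), LOC282255 (0.92), GTF2H2 (0.91) and PNPT1 (0.91). With H4-P1 left out these became 0.76, 0.57, 0.44, 0.87 and 0.68. LOC282255 (NM_181867) had log2 signals of 13.10 to 13.33 on LC and of 13.36, 13.11, 12.89 and 16.10 on HC in cows 1 to 4, so H4-P1 was 2.75 above the next array. PNPT1, a mitochondrial polynucleotide phosphorylase, had 9.50 on H4-P1 and 8.34 to 8.87 on the others. RECK and GTF2H2 had a high r with a small range, and H4-P1 was above their other arrays by 0.18 and 0.07. ISG15 itself was matched most closely, over the 7 arrays without H4-P1, by a probe for the sequence BC149213 (r 0.97 over 7 arrays and 0.99 over 8), which was named after its values were seen.

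Markers of other cell types were read on the same arrays. Of 20 leukocyte genes, 13 had a probe, 9 of them were well above background throughout, and ITGAM on no array. The summed intensity of the 13 was 11090 to 12428 in the LC group and 10502 to 13409 in the HC group. It was 13230 on H4-P1, below that of H1-P2. A sum weighs bright probes most, here CD4 (log2 signal 12.98 on H4-P1). None of the 9 well above background throughout had its highest signal on H4-P1, and 1, CD68 (5.40), had its lowest there. Their median excess on H4-P1 over the mean of the other 3 HC arrays was 0.01. For 9 stromal and vessel genes, of which 6 had a probe, the sum was 19567 to 22866 on LC and 19737 to 24023 on HC, with 20129 on H4-P1. For 6 smooth muscle genes it was 21105 to 26478 on LC and 20605 to 28801 on HC, with the lowest on H4-P1. For 3 red blood cell genes it was 3579 to 10226 on LC and 3013 to 9052 on HC, with 5285 on H4-P1. In limma, 0 genes of these 4 lists passed both thresholds for diet and 0 had an unadjusted p under 0.05, and their part in the member signals was not tested. Of the 10 squamous epithelium genes well above background throughout, 3 had their highest signal on H4-P1, beside 10.5% of the 16030 probes well above background on every array. H4-P1 led by 0.01 for KRT14, 0.02 for DSP and 0.66 for DSG1. DSG1 was at 12.92 on H4-P1, 9.13 to 10.27 on the other HC arrays and 10.01 to 12.26 on LC.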

How the data were processed

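The authors hybridized labelled RNA from rumen papillae to single-colour Agilent bovine arrays and deposited the scanner output (Agilent Feature Extraction 10.7.3.1, per the labels and headers), in which each spot has a background-subtracted intensity, and a table of quantile-normalized log2 values, which the authors deposited per probe. The intensity values were used here, and the log2 table was an alternative.

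Control and outlier spots were removed, the remaining log2 intensities were quantile-normalized (limma 3.58.1, R 4.3.3), and repeat spots were averaged. A probe counted as well above background on an array where all its kept spots were so marked. The reference's gene table (assembly ARS-UCD2.0) gave a symbol to 8297 of the 10176 probes that carry a RefSeq accession. The brightest probe stood for a gene. The limma model (no trend, not robust) held diet, period and the interaction term and was fitted to all 21475 probes, with 4 residual and 2.26 prior degrees of freedom. Thresholds were 1.5-fold and an unadjusted p of 0.05, and p values were adjusted by Benjamini-Hochberg across the whole array. The script was tested on simulated data.

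The members and gene lists were chosen with earlier results of these data known. The text names the members and a fixed set of receptor and signalling genes. It also names list genes past both thresholds and well above background on every array of at least 1 diet, the 8 list genes with the largest excess of H4-P1, and the 5 other genes most like the members. Other list genes are named as exceptions to a count. Some items are not reported here.

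The labels and the study's methods give the crossover. Samples were paired by cow in the within-cow differences and in the alternatives with cow as a block. The main limma model held no cow term. The deviations from the diet mean, across 16030 probes, had an r of 0.285, 0.298, 0.467 and 0.113 between the arrays of cows 1 to 4, against -0.237 to 0.185 between cows. The alternatives changed the background correction, scaling, values, filter, model, block, weights, probe choice and arrays. Tables and plots were made with pandas 2.3.3 and matplotlib 3.10.9 in Python 3.11.15.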

Additional observations from a re-analysis of the deposited data

Results flagged for a closer look

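In 9 of 42 groups of 4 arrays examined for the named genes, 1 array lay far from the other 3, with most of the group's range lying in the gap to its nearest neighbour. Chance alone gives such an array in about 1 in 20 groups. Of the 9, 7 were H4-P1 in the HC group. The log2 signals there were 9.91 for RTP4, 10.21 for XAF1, 10.52 for PARP9, 9.05 for HERC6, 7.61 for DTX3L, 11.59 for UBA7 and 16.10 for LOC282255. These genes were mostly named for their excess on that array, so these cases are not independent of it. In the LC group, L3-P2 was far below the others for MX1, at 7.04, and for PNPT1, at 8.34. ISG15 and MX1 did not meet this criterion in the HC group, because it weighs the gap against the range of the group. H4-P1 still lay 3.25 (ISG15) and 2.25 (MX1) above the next array.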

How the results depend on the processing

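The 198 probes past both thresholds became 8 with normexp background correction, 415 with the deposited table, 75 with the filter on dim probes, 105 in the general linear model without moderation and 589 without both arrays of cow 4, an alternative added after seeing the data. Leaving out 1 array gave 239 to 404, with more than 1.5 times the full count without L2-P1 (334), L4-P2 (404), H2-P2 (391), H3-P1 (356) or H4-P1 (378). The 1 member past them (IFIT3) became 0 with normexp and with the filter, which removed its probe. It became 1 to 2 as 1 array was left out. The 1 other interferon gene became 0 with normexp, with the filter, without the interaction and with diet alone, and 2 with the deposited table. It ranged from 1 to 12 as 1 array was left out. Without H3-P1, 11 genes were higher and 1 lower, beside 1.04% and 0.615% of all probes. Among the 11 were RTP4, XAF1, PARP9, HERC6, DTX3L, UBA7 and IRF9. In that fit H4-P1 was the only HC array of period 1 and added no residual, so nothing is read from these counts. The median excess of H4-P1 over the other HC arrays was 1.17 with normexp and 2.60 with the filter. It was 1.34 with the mean of all probes of a gene. All normexp values here and below carry an offset of 50, which shrinks the differences of dim probes, IFIT3 among them.

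The median difference of the members, 0.66, was 0.08 with normexp and 0.35 with the filter, changed sign to -0.012 without cow 4, and ran from -0.22 to 1.35 as 1 array was left out. Without cow 4, ISG15 was -0.012, MX2 -0.10 and RSAD2 -0.39. RSAD2 was -0.0052 with the mean of its probes. As 1 array was left out, ISG15 ran from -0.80 to 2.12, MX1 from -0.22 to 1.70, MX2 from -0.050 to 0.13, RSAD2 from -0.41 to 0.43 and IFIT3 from 1.09 to 1.36. All of these but IFIT3 were below 0 without H4-P1. ISG15 was also below 0 without L3-P2 (-0.13), MX2 without L4-P2 (-0.038) or H2-P2 (-0.050), and RSAD2 without L1-P1 (-0.41), L4-P2 (-0.0078) or H2-P2 (-0.21). The cause was not tested. With cow as a fixed replicate block and period, 276 probes, 1 member and 2 other interferon genes passed the thresholds. With cow as a random block these were 290, 1 and 1. The crossover is balanced, so a cow block cannot change the differences of the members, only their standard errors. Their sameness in these fits is therefore no check. Signal over background limits IFIT3 and TLR7, which were measured on few arrays.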
